A study of Mus musculus with 8 samples.

Results

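The SR splicing factors are a family of RNA-binding proteins, and the abundance of their transcripts in mouse muscle stem cells is described here for 10 genes: Srsf1, Srsf2, Srsf3, Srsf4, Srsf5, Srsf6, Srsf7, Srsf9, Srsf10 and Srsf11. They were chosen by name, found by gene identifier among the 57180 genes of the deposited tables, and all 10 passed the filter on low counts. The RNA came from muscle stem cells, from which skeletal muscle regenerates, which the study sorted and sequenced without culture. There were 4 control libraries (replicates 2, 5, 7 and 8), given as WT in the labels, and 4 libraries titled RhoA het (replicates 5, 6, 7 and 8). The design text describes the latter mice as SC-RhoAfl/+, which is a floxed RhoA allele beside an intact allele, and the genotype field calls them RhoA knockdown. The labels used here name neither the Cre driver nor the age of the mice, and do not say whether a library came from 1 mouse or from a pool. Nothing says what the replicate numbers stand for, so p-values measure the spread between these libraries. The study asked how expression and alternative splicing differ when RhoA activity is reduced, and splicing factors are among the genes through which such a question can be read.

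An SR protein binds exons through RNA recognition motifs and recruits the spliceosome through a tail rich in arginine and serine. Phosphorylation of that tail by the SRPK and CLK kinases sends the protein into the nucleus and releases it from nuclear speckles. Most SR genes limit their own output by splicing in a poison exon, which sends the transcript to nonsense-mediated decay. The counts used here sum all exons of a gene, so the productive and the decayed form of an SR transcript were not separated.

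Library totals ran from 19138763 to 25606342 assigned fragments. Rhoa, the targeted gene and the check of the labels, had a mean of 324.6 ± 46.3 CPM (SD) over the 4 controls, against 264.8 ± 14.4 CPM over the 4 RhoA het libraries. Its log2 fold change was -0.29 (SE 0.13, unadjusted p 0.0495 and adjusted p 0.9998 over all genes, edgeR quasi-likelihood test). The groups overlapped for Rhoa, since control replicate 7 at 272.6 CPM was below RhoA het replicate 8 at 282.1 CPM. The stem cell marker Pax7 was lower in RhoA het, at 78.6 to 105.6 CPM against 112.5 to 176 CPM in control. Its groups did not overlap, as was so for 1.81% of genes. Its log2 fold change was -0.51 (unadjusted p 0.0173 and adjusted p 0.9998 in edgeR; exact permutation p 0.0286, the smallest possible) and -0.65 with same-numbered libraries paired (adjusted p 0.143 in edgeR). Pax7 was the 1 of 10 listed stem cell markers at an unadjusted p under 0.05 in edgeR over 8 libraries. The others went both ways: the list's median log2 fold change was -0.001, with 5 genes higher and 5 lower in RhoA het. The part of Pax7-expressing cells in the SR values was not tested. RhoA het replicate 6 stood apart by its endothelial transcripts: all 10 endothelial markers were highest in it, and their sum was 683 CPM there, against 74.2 to 171 CPM in the control libraries and 115 to 142 CPM in the other RhoA het libraries. All 5 erythroid markers were also highest in it, summing to 319 CPM against 1.86 to 142.6 CPM elsewhere. So were 5 of 7 immune markers, though their sum was 100 CPM there and 90.2 to 355 CPM elsewhere. Mural markers summed to 1298 CPM there and to 1526 CPM in RhoA het replicate 8. Both libraries numbered 5 stood apart by their cell cycle transcripts, with 20 of 24 listed genes above all other libraries. Y-linked genes had 15179 fragments in control replicate 2 and 15137 in RhoA het replicate 6, and no more than 677 elsewhere. The X-linked gene Xist had 5 and 7 fragments in those libraries, and 3539 to 5188 elsewhere.

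The promoters of 4 members are shown because the results turn on these genes. Srsf3 and Srsf7 had the most similar profiles over the libraries, and Srsf11 was in 6 of the 7 member pairs with a negative correlation. Srsf2 differed most between the genotypes in the same-numbered libraries. Each window runs from 250 bases before to 50 bases after the gene's start, 5′ to 3′ on the gene's strand. Sequences and positions are from RefSeq on GRCm38.p6, which is not the build of the count table. Windows of all 10 members were found in that table, and where a gene had several starts the outermost one was used. Capitals mark matches, on either strand, to any of 6 motifs. They are the CCAAT box, a TATA box written as TATAAA, the GC box written as GGGCGG, an ETS core written as CCGGAAG, an E2F site written as TTTCGCGC, and the CArG box of SRF, a factor through which RhoA and actin can act on transcription. Matches could overlap.
Srsf2, chr11:116853045-116853344, minus strand: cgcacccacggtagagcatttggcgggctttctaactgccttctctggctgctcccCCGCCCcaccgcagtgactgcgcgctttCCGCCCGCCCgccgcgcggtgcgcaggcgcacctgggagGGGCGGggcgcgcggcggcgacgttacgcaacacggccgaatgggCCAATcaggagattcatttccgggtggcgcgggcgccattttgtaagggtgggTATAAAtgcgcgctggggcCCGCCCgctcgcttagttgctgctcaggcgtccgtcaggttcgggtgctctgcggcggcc
Srsf3, chr17:29032410-29032709, plus strand: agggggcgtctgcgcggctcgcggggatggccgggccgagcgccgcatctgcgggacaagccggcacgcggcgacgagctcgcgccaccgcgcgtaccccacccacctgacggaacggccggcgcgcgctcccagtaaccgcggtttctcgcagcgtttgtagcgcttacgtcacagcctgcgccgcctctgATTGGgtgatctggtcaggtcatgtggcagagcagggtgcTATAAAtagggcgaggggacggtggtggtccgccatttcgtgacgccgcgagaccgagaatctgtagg
Srsf7, chr17:80207256-80207555, minus strand: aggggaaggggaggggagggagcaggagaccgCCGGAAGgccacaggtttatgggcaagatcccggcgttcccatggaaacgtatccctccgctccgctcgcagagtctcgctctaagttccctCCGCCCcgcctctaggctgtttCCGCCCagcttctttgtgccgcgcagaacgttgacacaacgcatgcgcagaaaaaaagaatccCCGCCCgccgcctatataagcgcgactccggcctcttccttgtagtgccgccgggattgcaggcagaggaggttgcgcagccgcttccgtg
Srsf11, chr3:158036557-158036856, minus strand: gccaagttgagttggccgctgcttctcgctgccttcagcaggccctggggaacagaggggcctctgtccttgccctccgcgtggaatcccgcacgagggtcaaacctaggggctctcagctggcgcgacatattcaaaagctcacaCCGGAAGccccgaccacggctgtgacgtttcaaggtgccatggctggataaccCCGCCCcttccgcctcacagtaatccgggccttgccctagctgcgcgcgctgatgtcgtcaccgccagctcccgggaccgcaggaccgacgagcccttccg

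The windows of Srsf2 and Srsf3 held a TATAAA match, beginning 29 and 18 bases before the start, and these were the only 2 of 10 members with one (14.2% of 27025 promoters of the same length). GGGCGG was present in 9 of 10 members, against 35.9% of promoters, and Srsf3 was the member without it. CCAAT was present in 4 of 10 members (38% of promoters) and CCGGAAG in 4 of 10 (9.14%). No member window held a CArG box or TTTCGCGC, which 1.59% and 0.326% of promoters did. SR promoters were rich in CG dinucleotides, with 20 to 49 per window against a median of 7 over all promoters. A match of letters describes the sequence and shows no binding.

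Levels were compared between members on the TPM scale, which corrects for gene length. The family summed to 2607 ± 367.8 TPM in control and 2636 ± 294.5 TPM in RhoA het (SD, n = 4 each), about 0.226% to 0.314% of all transcripts per library. Srsf7, a shuttling SR protein with a zinc knuckle that also serves mRNA export, was the most abundant member at 1016 ± 166 TPM in control and 974 ± 118 TPM in RhoA het. It supplied 37.9% ± 1.77 of the family's TPM over the 8 libraries. Srsf5 followed at 538 ± 147 and 605 ± 73.5 TPM, and Srsf7 and Srsf5 together made up 55.1% to 63.4% of the family in each library.

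A middle tier held Srsf6, Srsf2, Srsf3, Srsf10 and Srsf11, with group means between 129.6 and 226.6 TPM. Srsf9, Srsf1 and Srsf4 formed the lowest tier, with group means between 28.3 and 48.2 TPM. Srsf1 is the founding member of the family, yet it was at 31.4 to 50.7 TPM in the libraries, where Srsf7 was at 810 to 1237 TPM.

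Neighbours in this order were compared within libraries. Srsf7 exceeded Srsf5 in 8 of 8 libraries, by 0.81 ± 0.222 on the log2 TPM scale (mean and SD of the differences), and Srsf5 exceeded Srsf6 in 8 of 8, by 1.35 ± 0.29. The step from Srsf11 down to Srsf9, 1.53 ± 0.376, also held in 8 of 8. The order was not resolved between Srsf6 and Srsf2 (0.10 ± 0.379), between Srsf2 and Srsf3 (0.044 ± 0.405) or between Srsf9 and Srsf1 (0.088 ± 0.261), where the mean difference was smaller than its SD. Srsf12, a family gene outside the 10, was measured at 0.217 to 1.06 TPM. TPM here divides by the summed exon length of all annotated transcripts, 1653 bases for Srsf9 and 8446 bases for Srsf11, so long rarely used exons lower a gene's value. Srsf4 shares 1532 of its 3561 exon bases with an opposite-strand gene, where fragments cannot be told apart. Its TPM and its place at the bottom of the order are therefore uncertain.

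**Figure D1:**
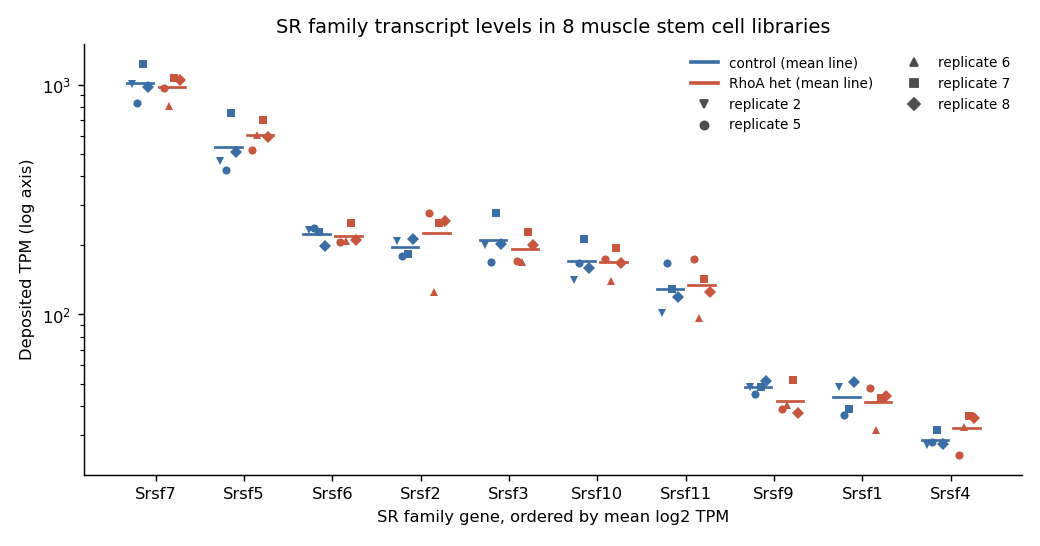
Deposited TPM (log axis) of the 10 SR genes, ordered by mean log2 TPM, with 4 control (blue) and 4 RhoA het (red) libraries per gene; marker shapes give the replicate number and horizontal lines the group means. Srsf7 and Srsf5 lie above all other members in every library, and for each gene the control and RhoA het points overlap.

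The comparison of RhoA het with control was then read for each member from the test over all genes. On this and the following scale, CPM scaled by TMM, values are compared within a gene only. None of the 10 members passed an adjusted p of 0.05 (edgeR quasi-likelihood test), as for all 15660 genes tested, of which 0 or 0% passed. At an unadjusted p under 0.05 there were 0 members, against 2.38% of genes, and DESeq2 also called 0 members. For all 10 members the groups overlapped (they did not for 1.81% of genes). By direction alone 7 members were lower in RhoA het and 3 higher, where 50.1% of all genes were lower. The median log2 fold change of the members was -0.11, against -0.00071 over all genes. It was -0.059 with total counts in place of TMM, beside 0.042 over all genes, and -0.024 on log2(TPM + 1), beside 0.068. The 95% confidence intervals of the members lay between -0.68 and 0.61 on the log2 scale.

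Among the shuttling export factors, Srsf7 was at 1389, 830.4, 1316 and 1137 CPM in control replicates 2, 5, 7 and 8. In RhoA het replicates 5, 6, 7 and 8 it was at 986, 935, 1138 and 1127 CPM. The RhoA het libraries all lay inside the range of the control libraries. Srsf7 had a log2 fold change of -0.16 (SE 0.179, 95% interval -0.56 to 0.24; adjusted p 0.9998 in edgeR, two-sided exact permutation p 0.457). It was -0.31 without control replicate 5 (unadjusted p 0.0577 and adjusted p 0.9995 in edgeR) and -0.068 without control replicate 2. Srsf3, the smallest SR protein, which like Srsf7 hands spliced mRNA to the export receptor Nxf1, was at 613, 372, 653 and 524.5 CPM in control and at 387, 434, 544 and 478 CPM in RhoA het, in the same order of replicates. Its lowest value was again in control replicate 5 and its highest in control replicate 7. Srsf3 had a log2 fold change of -0.23 (SE 0.192, 95% interval -0.66 to 0.20, exact permutation p 0.371). Without control replicate 5 it was -0.39 (unadjusted p 0.0337 and adjusted p 0.9995 in edgeR).

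Srsf4, Srsf5 and Srsf6 are related SR proteins that carry a degenerate RNA recognition motif beside the canonical one. Srsf5 ranged from 475.9 to 900 CPM in control and from 599 to 840 CPM in RhoA het; the log2 fold change was 0.089 (SE 0.2). Without control replicate 5 this turned to -0.067. Srsf6 ranged from 313 to 435 and from 285 to 360.5 CPM, with a log2 fold change of -0.13 (SE 0.145). Srsf4, the member with the lowest mean TPM, was at 37.2, 27.6, 33.6 and 31.7 CPM in control and at 25, 37.5, 38.7 and 37.9 CPM in RhoA het. RhoA het replicate 5 was the lowest of all libraries for Srsf4, and the other 3 RhoA het libraries were above all 4 controls. Srsf4 had a log2 fold change of 0.097 (SE 0.166) over 8 libraries and of 0.22 without RhoA het replicate 5 (adjusted p 0.9999 in edgeR).

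Srsf1 and Srsf9 are close relatives that can stand in for each other in choosing splice sites. Srsf1 was at 107, 58.1, 66.6 and 94.7 CPM in control and at 78.5, 58.2, 74.5 and 75.6 CPM in RhoA het. The control libraries spread over the whole range, and their SD of 23.1 CPM exceeded that of RhoA het, 9.12 CPM. The log2 fold change was -0.19 (SE 0.202, exact permutation p 0.543). Srsf9 was at 30.8, 20.7, 24 and 27.9 CPM in control and at 18.4, 21.7, 25.8 and 18.5 CPM in RhoA het. Control replicates 2 and 8 were above every RhoA het library, and RhoA het replicates 5 and 8 below every control. Srsf9 had the lowest p of the members, with a log2 fold change of -0.29 (SE 0.172, interval -0.68 to 0.093; unadjusted p 0.121 and adjusted p 0.9998 in edgeR, exact permutation p 0.143). It was also the member with the fewest fragments, 360 to 640 per library, for which counting alone gives an error of 3.95% to 5.27%.

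Srsf10 represses splicing when its tail is dephosphorylated, and Srsf11 is an SR-related protein found with the factors of the 3′ splice site. Srsf10 varied least of the 10, from 317.9 to 447 CPM, with a log2 fold change of -0.091 (SE 0.137). Srsf11 was at 332, 396, 328 and 330.3 CPM in control and at 422, 264.5, 360.4 and 318 CPM in RhoA het. Both libraries numbered 5 were the highest for Srsf11, and RhoA het replicate 6 was the lowest. The log2 fold change was -0.023 (SE 0.158). With total counts in place of TMM it was 0.025, where the median of all genes moved from -0.00071 to 0.042.

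Srsf2, known as SC35 and a marker of nuclear speckles, gave the widest difference between results. It was at 238, 148, 163 and 206 CPM in control replicates 2, 5, 7 and 8, and at 235, 120.3, 222 and 227 CPM in RhoA het replicates 5, 6, 7 and 8. RhoA het replicate 6 was the lowest library and control replicate 2 the highest, and the other RhoA het libraries lay in a narrow band near the top. Srsf2 had a log2 fold change over all 8 libraries of 0.092 (SE 0.232, 95% interval -0.43 to 0.61). Without RhoA het replicate 6, the library with high endothelial and erythroid transcripts, it was 0.27 (adjusted p 0.9999 in edgeR). Without control replicate 2 it was 0.22, and without control replicate 5 it turned to -0.022. Whether the endothelial, erythroid or other marker transcripts had a part in the low Srsf2 value of RhoA het replicate 6 was not tested. In bulk RNA, fewer cells of a type and less RNA per cell cannot be told apart.

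**Figure D2:**
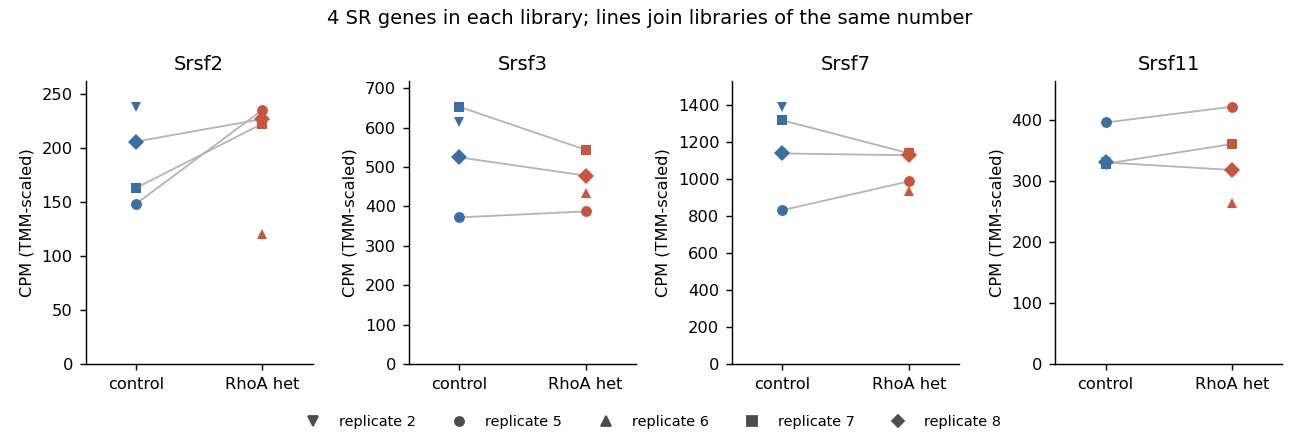
CPM scaled by TMM of Srsf2, Srsf3, Srsf7 and Srsf11 in each library, with control in blue, RhoA het in red, marker shapes for the replicate number and lines joining libraries of the same number. Srsf2 is higher in RhoA het in all 3 joined pairs, while its lowest value, 120.3 CPM, is RhoA het replicate 6, which has no partner.

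Replicate numbers 5, 7 and 8 occur in both genotypes, and libraries of the same number resembled each other across all genes. With the number as a block, the 3 pairs gave 0 of 10 members past an adjusted p of 0.05, where 2 of 15714 genes (0.0127%) passed. At an unadjusted p under 0.05 there was 1 member, Srsf2, against 5.26% of genes in either direction and 2.98% in the direction of Srsf2, higher. Srsf2 was higher in RhoA het by 0.67, 0.45 and 0.14 on the log2 CPM scale in pairs 5, 7 and 8, which made it 1 of 10 members with the same direction in all 3 pairs (26.2% of genes, 13.6% being higher in all 3). Its log2 fold change with the block was 0.39 (SE 0.13, interval 0.11 to 0.68; unadjusted p 0.0112 and adjusted p 0.755 in edgeR). The 3 control libraries of the pairs, 148 to 206 CPM, did not overlap the 3 RhoA het libraries, 222 to 235 CPM, as was so for 6.68% of genes. Leaving out pair 5 lowered the block value to 0.28 (unadjusted p 0.107, adjusted p 0.996 in edgeR), and leaving out pair 8 raised it to 0.57 (adjusted p 0.115). Srsf2 shares 460 and 288 exon bases, of 2958, with the opposite-strand genes Mettl23 and Mfsd11, and with no strand option in the counting, fragments there cannot be told apart, which makes its count uncertain.

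The other members had unadjusted p-values of 0.173 or more with the block in edgeR. Srsf3 had -0.14 (SE 0.123), Srsf9 -0.24 (SE 0.165) and Srsf7 -0.016 (SE 0.135). Srsf1 had 0.065 (SE 0.148; 0.033 in the same 6 libraries without the block), being higher in RhoA het in pairs 5 and 7 and lower in pair 8. The median of the 10 members was 0.0087 with the block, with 5 members on each side, and -0.0033 in the same 6 libraries without the block, beside -0.021 over all genes with the block. Leaving out control replicate 2 and RhoA het replicate 6, which the pairs do, thus brought the median near 0 with or without the block. Those were also the libraries with many Y-linked and few Xist fragments, so the lack of a partner and the sex-linked transcripts cannot be told apart. Myofibre transcripts moved with genotype in these pairs: 10 of 10 listed genes were lower in RhoA het at an unadjusted p under 0.05 in edgeR (5.26% of all genes in either direction), with a median of -1.27. The 2 genes past the adjusted threshold were both on this list, Acta1 (-1.32, adjusted p 0.0275) and Atp2a1 (-1.40, adjusted p 0.0349), the actin and the calcium pump of muscle fibres. Over all 8 libraries the list's median log2 fold change was -0.17, with 0 of 10 genes at an unadjusted p under 0.05 in edgeR. The libraries without a partner went the other way, with summed levels of 178.6 CPM in control replicate 2 and 573 CPM in RhoA het replicate 6. The summed level of the myofibre genes was 164.4 to 608.5 CPM in control and 111 to 573 CPM in RhoA het, and none of the 10 was at 0 in any library. Their part in the SR values was not tested.

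**Figure D3:**
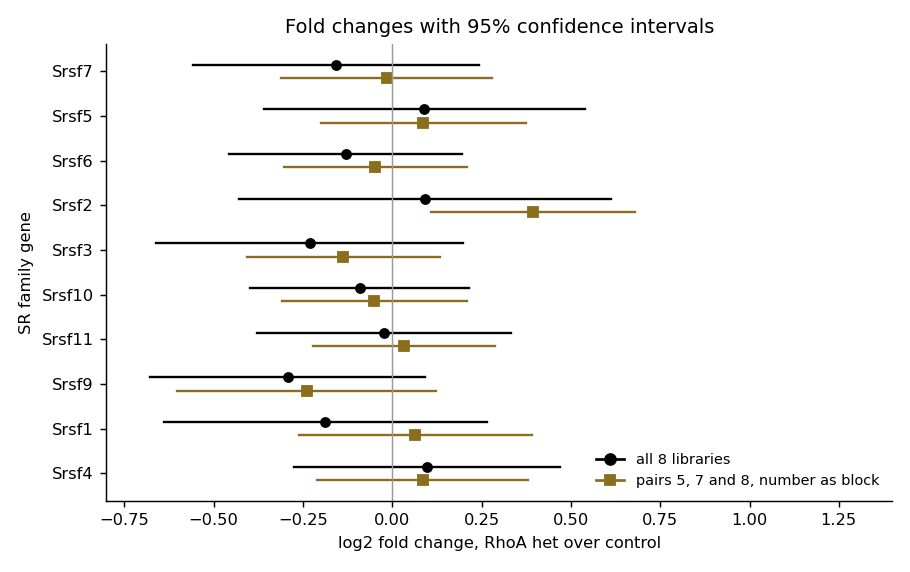
Log2 fold change of each SR gene, RhoA het over control, with 95% confidence intervals, from all 8 libraries (black circles) and from pairs 5, 7 and 8 with the replicate number as block (brown squares). All black intervals cross 0; among the brown ones only that of Srsf2, 0.11 to 0.68, does not, before any adjustment for the number of genes.

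Libraries of 1 group differed among themselves in the SR genes. Within groups the median SD of log2 CPM was 0.252 over the members, beside 0.23 over the 5924 genes of at least 20 CPM, and counting error was 5.27% at most. The lowest library was one of those numbered 5 for 7 of 10 members (28.8% of all genes), and the highest was control replicate 2 for 5 of 10 (15.5% of all genes). Srsf3, Srsf4 and Srsf5 were lower in both libraries numbered 5 than in the other 6, which held for 3 of 10 members and 10.6% of genes. Srsf11 did the opposite and was above the other 6 in both (1 of 10 members, 11.3% of genes), and it was the 1 member with its highest library among those numbered 5 (27.8% of genes). Cell cycle genes averaged a log2 CPM of 4.64 in control replicate 5 and 4.203 in RhoA het replicate 5, and 2.80 or less elsewhere; its part in these SR values was not tested.

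**Figure D4:**
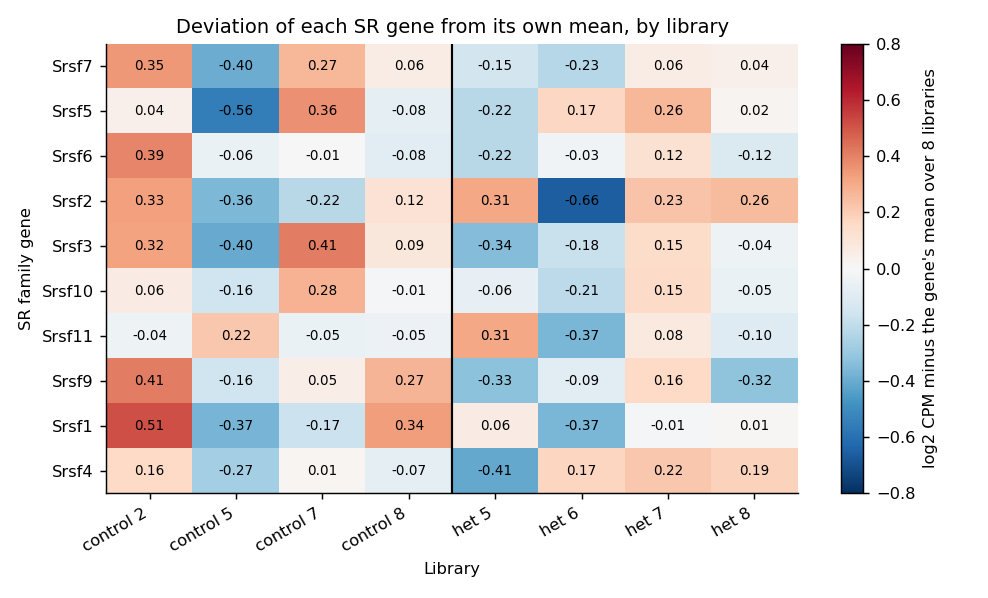
Log2 CPM of each SR gene minus that gene's mean over the 8 libraries, for 4 control libraries (left of the line) and 4 RhoA het libraries (right). Control replicate 2 is above the mean for 9 of 10 genes and control replicate 5 below it for 9 of 10, Srsf11 being the exception in both; the lowest single cell is Srsf2 in RhoA het replicate 6, at -0.66.

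Over the 8 libraries, members varied together to very different degrees, given here as a description since libraries of the same number are alike. Srsf3 and Srsf7 had the highest Pearson correlation of log2 CPM among the 45 pairs of members, r = 0.94 (Spearman 0.952), and 0.90 without the 2 libraries farthest from the median of Srsf3. Srsf1 and Srsf2 had r = 0.80 between them (0.76 without 2 libraries). With Srsf7 they had 0.68 and 0.52, but 0.23 and -0.37 without 2 libraries, so those values rested on few libraries. With Srsf5 they had 0.094 and 0.014, and -0.60 and -0.65 without 2 libraries. Srsf11 was in 6 of the 7 pairs with a negative r, the lowest being -0.75 with Srsf4. That value rested on the libraries numbered 5, since without the 2 libraries farthest from the median of Srsf4 it was -0.10. With Srsf6, Srsf7 and Srsf9 the r of Srsf11 likewise turned to 0.20, 0.11 and 0.12 without 2 libraries. With Srsf3 and Srsf5 it stayed negative, at -0.16 and -0.54.

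Tra2a, a splicing activator with the same kind of arginine- and serine-rich tails, had the profile most like the mean of the family among 7914 genes of at least 10 CPM outside it (r = 0.95 over 8 libraries). It ranged from 155.7 CPM in control replicate 5 to 314 CPM in control replicate 2. Among the next were Rnf34 (r = 0.95), Hspbp1 (0.93) and Btbd11 (0.92), at mean levels of 21.3, 52.3 and 12.1 CPM. Hspbp1 was highest in RhoA het replicate 7, and Rnf34 and Btbd11, like Tra2a, in control replicate 2. None of these 4 genes passed the test between genotypes (adjusted p 0.9998 for each in edgeR).

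Other genes of SR protein function were described by lists, whose median log2 fold changes can be read beside the -0.00071 of all genes. Of 26 SR-related proteins and their direct partners, 0 passed an adjusted p of 0.05 in edgeR in either direction, and 0 had an unadjusted p under 0.05. Their median log2 fold change was -0.0073, with 11 higher and 15 lower in RhoA het. The lowest p in each direction belonged to Bclaf1 (0.093, SE 0.117) and to Tra2a (-0.23, SE 0.205).

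The 12 genes for SR kinases and nuclear import included 0 past the threshold and 0 at an unadjusted p under 0.05, with a median of 0.087. By sign 11 of the 12 were higher in RhoA het, where 49.9% of all genes were. Clk4, a nuclear kinase that releases SR proteins from speckles, had the lowest p, at 113 ± 6.4 CPM over the controls against 128.2 ± 9.4 CPM over the RhoA het libraries (SD, n = 4 each; log2 fold change 0.18, SE 0.106, interval -0.055 to 0.42, exact permutation p 0.0857). Its groups overlapped, since RhoA het replicate 6 at 114.8 CPM was below control replicates 2 and 7. By the exact permutation test Clk2 had a lower p than Clk4, 0.0571. The gene lower in RhoA het was Tnpo3, the importin of SR proteins (-0.044, SE 0.113). With the block, 1 of the 12 had an unadjusted p under 0.05 in edgeR, against 5.26% of genes in either direction and 2.98% higher. It was Srpk1 (0.25, adjusted p 0.931 in edgeR), a cytoplasmic SR kinase named here after its value was seen. Of 12 genes for mRNA export and nonsense-mediated decay, 4 were higher and 8 lower (median -0.029), 0 of them at an unadjusted p under 0.05 in edgeR. Nxf1 had 0.11 (SE 0.127) and Smg6, an endonuclease of the decay pathway, -0.14 (SE 0.117).

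The technical lists were given the same reading. Over 24 cell cycle genes the median log2 fold change was -0.16, with 5 higher and 19 lower, 0 at an unadjusted p under 0.05 in edgeR, and lowest p for Bub1b (0.18, SE 0.471) and Aurkb (-0.79, SE 1.39). Over 17 dissociation response genes it was -0.049, with 6 higher and 11 lower, and lowest p for Klf6 (0.22) and Zfp36 (-0.38). The summed CPM of fibro-adipogenic, mural and Schwann markers overlapped between the groups, as did those of immune and erythroid markers. Erythroid markers ranged from 1.86 to 319 CPM, and Adgre1, Cd3e and Itgam of the immune list were at 0 in at least 1 library.

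Positions in the count table (mm39) are as follows. Srsf2 lies on chromosome 11 from 116740727 to 116743920 (minus strand, ENSMUSG00000034120.19) and Srsf1 on the same chromosome from 87938199 to 87944581 (plus strand, ENSMUSG00000018379.18). Srsf3 and Srsf7, the pair with the most similar profiles, are both on chromosome 17, from 29251602 to 29262347 (ENSMUSG00000071172.14) and from 80507509 to 80514736 (ENSMUSG00000024097.12). Srsf9 lies on chromosome 5 from 115465236 to 115471139 (ENSMUSG00000029538.15) and Srsf11 on chromosome 3 from 157716110 to 157742276 (ENSMUSG00000055436.19). Counts of Srsf1, Srsf4 and Srsf10 are uncertain in the same way as that of Srsf2, since they share 660 of 5710, 1532 of 3561 and 177 of 7003 exon bases with a gene on the opposite strand. That gene had a mean of at most 22.6 fragments per library.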

How the data were processed

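RNA of 8 libraries was measured by low-input RNA sequencing. The deposited gene counts are raw: fragments over exons were counted by the authors with featureCounts 1.6.4 on GENCODE mouse release 34 (mm39), per the file headers, with no strand option in the command. The deposited TPM values, recomputed from the counts and exon lengths, differed by at most 5e-15 in relative terms. FastQC, cutadapt, STAR and DESeq2 are named in the submitters' processing notes. The members and lists were chosen with earlier results of these data known.

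Counts of 15660 genes kept by edgeR's expression filter (edgeR 4.0.16, R 4.3.3) were scaled by TMM and tested with the quasi-likelihood F test over all 8 libraries without covariates, with Benjamini-Hochberg adjustment over all genes and a threshold of 0.05. For single genes the log2 CPM (prior count 2) was also compared by exact permutation, two-sided, over 70 assignments, whose smallest p is 0.0286. Same-numbered libraries deviated together across genes (correlations 0.544, 0.231 and 0.488 for numbers 5, 7 and 8), so the numbers were treated as pairs in a fit with the replicate block (15714 genes). That pairing is inferred from the data. Alternatives used limma 3.58.1 and DESeq2 1.42.0, and the tests were tried on simulated data first. From each list the gene with the smallest p in each direction was named, and from all other genes the 5 most like the family mean, of which 1 is not reported here. Figures were drawn with matplotlib 3.10.9.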

Additional observations from a re-analysis of the deposited data

Results flagged for a closer look

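In 4 of 22 group values tested, 1 library lay far from the other 3 of its group, by a gap past the 95% critical value of Dixon's test; chance gives about 1 in 20, or 1.1 of 22. Srsf2 in RhoA het replicate 6 had a log2 CPM of 6.91, against 7.80 to 7.88 in the other RhoA het libraries. Srsf4 in RhoA het replicate 5 had 4.65, against 5.23 to 5.28. Srsf6 in control replicate 2 had 8.77, against 8.29 to 8.37 in the other controls, and Srsf11 in control replicate 5 had 8.63, against 8.36 to 8.37.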

How the results depend on the processing

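Each member was recomputed under 20 settings. Of these 200 values, 0 passed the threshold (lowest adjusted p 0.528, Srsf2 in DESeq2 with the replicate block) and 16 turned direction. Over all genes, 2 passed with the replicate block in edgeR and 41 with the block in DESeq2, a setting chosen after seeing the data, against 0 without the block; the cause was not tested. The block changed no call of a member. Srsf11 turned to 0.025 with total counts, where the median of all genes also moved by a like amount, to 0.042. It turned to 0.0027 with limma-voom quality weights, 0.043 and 0.043 on log2(TPM + 1) and log2(TPM + 0.1), 0.033 with the block, 0.039 in the same 6 libraries without it, 0.058 with the block in DESeq2, and 0.035, 0.080 and 0.0078 without control replicate 5, RhoA het replicate 6 and RhoA het replicate 8. Srsf1 turned to 0.065 with the block, 0.033 in the 6 libraries and 0.090 with the block in DESeq2, and Srsf7 to 0.0090 in the last. Without control replicate 5, Srsf2 was -0.022 and Srsf5 -0.067. Leaving out 1 library at a time, Srsf2 ran from -0.022 to 0.27, Srsf5 from -0.067 to 0.24 and Srsf11 from -0.14 to 0.080. Srsf1 ran from -0.33 (without control replicate 5) to -0.031 (without control replicate 2), Srsf3 from -0.39 to -0.13, Srsf4 from 0.012 to 0.22, Srsf6 from -0.20 to -0.010, Srsf7 from -0.31 to -0.068, Srsf9 from -0.41 to -0.20 and Srsf10 from -0.17 to -0.0077. The median of the members ran from -0.18 (without RhoA het replicate 7) to -0.037 (without control replicate 2). Counting error is small beside the spread between libraries, so the number of libraries limits precision.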

Other observations

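Control replicate 2 and RhoA het replicate 6 are the libraries with no same-numbered partner, and they enter the comparison over 8 libraries but not the pairs. They are also the libraries with many Y-linked and few Xist fragments, so these traits cannot be told apart. RhoA het replicate 6 was below control replicate 2 for 8 of 10 members, by -0.98 on the log2 CPM scale for Srsf2, -0.88 for Srsf1 and -0.57 for Srsf7. Srsf4 (0.012) and Srsf5 (0.12) were the others. In the pairs, Srsf2 and Srsf1 had positive values in pairs 5 and 7, so for these genes the libraries without a partner and those pairs differ in sign. No test was made of that difference.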
